A study of Mus musculus with 6 samples.

Results

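ATP-binding cassette (ABC) transporters of the ABCA and ABCG subfamilies were examined in mammary tumors of mice fed the liver X receptor (LXR) agonist DMHCA. The members were chosen by gene symbol and are Abca1, Abca2, Abca3, Abca5, Abca7, Abca8a, Abca9, Abcg1, Abcg2 and Abcg4, which are 10 of the 55385 genes in the deposited tables. Each symbol was found in 1 gene of each library. The tumors came from female NeuT/ATTAC mice, which carry a constitutively active rat ErbB2 gene driven by the MMTV promoter. They also carry an FKBPv-caspase-8 fusion gene under the FABP4 promoter, which acts in fat cells. The dimerizer AP20187 switches this caspase on, so that part of the mammary fat is lost and is replaced by fibrotic tissue. Injections of 0.4 mg/kg AP20187 began when the mice were 6 weeks old. Treated mice then ate food with 0.05% DMHCA, which comes to 100 mg/kg, once they were 8 weeks old. There were 3 control and 3 DMHCA libraries, and the control label can be read as AP20187 with vehicle or as vehicle alone. The study describes the controls as AP20187-treated mice and the tissue as tumor, while the labels speak of fibrotic mammary gland, and the study's description was followed.

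ABCA and ABCG proteins use ATP to move sterols, phospholipids and other lipids across or out of membranes. ABCA1 loads cholesterol and phospholipid onto lipid-poor apolipoprotein particles, and ABCG1 passes cholesterol on to particles that already hold lipid. When cholesterol or its oxidized derivatives build up in a cell, LXR with its partner RXR binds DNA elements near the genes of both transporters and increases their transcription. Such an LXR element is a direct repeat of a short hexamer with 4 bases between the copies (DR4).

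The promoter windows of the members were searched for this element because DMHCA acts through LXR. RefSeq windows on GRCm38.p6, 250 bases before to 50 bases after each start, were at hand for 8 of the 10 members (10 windows), the exceptions being Abcg1 and Abcg4. The motif sought was AGGTCA, then any 4 bases, then AGGTCA again, on both strands. With up to 2 mismatches in its fixed bases, 0 of the 10 windows held it, while 3.02% of the 32851 windows in the table did. With up to 3 mismatches, a limit set after this search, the window of Abca1 held it and the other 9 did not. At this limit 21.9% of all windows hold a match, so the match by itself is common. The 250 bases before the start of Abca1 (GRCm38.p6, chr4:53159896-53160145, minus strand, read in the direction of the gene) are shown because Abca1 was the member with the smallest p, and capitals mark the match, 67 to 52 bases before the start.
Abca1: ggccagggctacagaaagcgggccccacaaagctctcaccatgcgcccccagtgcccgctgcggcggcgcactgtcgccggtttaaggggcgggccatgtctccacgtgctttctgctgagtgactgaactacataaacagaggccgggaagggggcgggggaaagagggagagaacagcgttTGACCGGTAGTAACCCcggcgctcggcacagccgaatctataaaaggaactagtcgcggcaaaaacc

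The same search was made for Srebf1, the master regulator of fatty acid synthesis and an established LXR target. Of its 3 windows, 1 held a match, 182 to 167 bases before the start (chromosome 11, 60210638 to 60210653, minus strand). Read on the strand of the motif, the sites of Abca1 and Srebf1 shared 14 of 16 bases. These shared letters, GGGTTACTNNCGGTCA, were then sought on both strands of all 32851 windows, a search chosen after the 2 sites had been seen. They were found in 3 windows, those of Abca1, Srebf1 and Fasn, the gene of fatty acid synthase. The windows of Abca1 and Srebf1 had to match, because the letters were taken from them, so only that of Fasn was found by the search. The site of Fasn lay 225 to 210 bases before its start and had the same letters as that of Abca1. The 3 sites are shown on the strand of the motif, with the shared letters in capitals.
Abca1: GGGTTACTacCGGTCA
Srebf1: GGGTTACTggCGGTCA
Fasn: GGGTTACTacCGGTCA

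A match describes these letters only, and binding of LXR was not measured here.

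The libraries held between 46358654 and 63420620 expected counts. DMHCA libraries 1 and 3 were nearly identical, and their biological coefficient of variation, which measures spread in excess of counting noise, was 0.0327, against 0.376 to 0.579 for the 5 other pairs of libraries within a group. Their counts were summed and taken as 1 sample, which leaves 3 control and 2 DMHCA samples. The study describes tumors of separate mice, 3 in each group, but the labels do not tie libraries to mice. P-values measure only the spread between these samples, part of which may be technical. Markers of luminal epithelium, from which these tumors arise, were high in every sample, with a summed level of 2705 to 4796 transcripts per 1000000 transcripts (TPM). Control library 1 also held salivary gland transcripts, with a summed level of 8778 TPM against at most 120.3 in any other sample. Control library 3 held B cell transcripts, with 286 TPM against at most 33.8 in any other sample.

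All 10 members passed the filter on low counts. By edgeR's quasi-likelihood test with Benjamini-Hochberg adjustment over 19427 genes, 0 of the 10 members had an adjusted p under 0.05, and so did 0.0% of all genes. Abca1 was the member with an unadjusted p under 0.05, with a higher level under DMHCA. Of all genes, 3.53% reached this in the higher and 4.08% in the lower direction. DESeq2 on the 5 samples gave an adjusted p under 0.05 to 0 members and to 1.22% of genes. Run on all 6 libraries as if each were a sample of its own, DESeq2 gave one to Abca1 and to 3.98% of genes. Its unadjusted p was under 0.05 for Abca1 and Abca3 on the 5 samples, beside 2.35% of genes in the higher and 4.35% in the lower direction. On the 6 libraries this held for Abca1 and Abca2, beside 4.14% and 6.21% of genes. With edgeR and no filter on low counts it held for Abca1, Abca2 and Abca3, beside 2.84% of genes higher and 5.1% lower. With edgeR on the 6 libraries it held for Abca1 and Abca2 (higher) and Abca5 (lower), beside 7.56% higher and 8.03% lower. With the replicate number as a block as well, Abcg1 joined these genes on the higher side, beside 9.1% higher and 8.08% lower. In normalized counts, the groups had no overlap for Abca1, Abca2 and Abcg1, which were higher with DMHCA, and for Abca5, which was lower. In TPM the first 3 were apart as well, but Abca5 overlapped. Of the 19427 genes, 13.8% had both DMHCA samples above all controls and 12.2% had both below. The median log2 fold change of the members was 0.24, beside -0.03 over all genes tested.

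**Figure D1:**
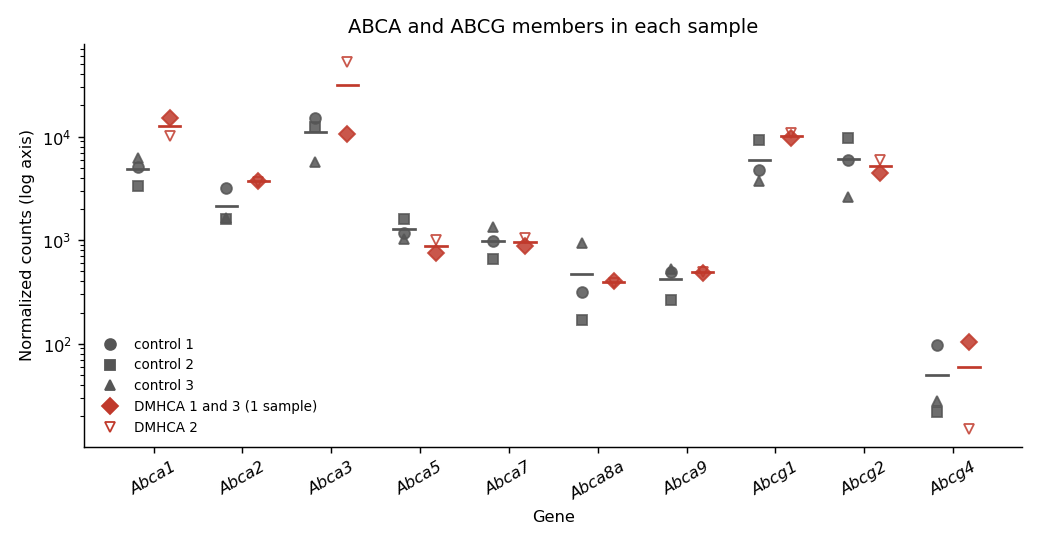
Normalized counts (log axis) of the 10 members in each sample, with controls in grey, DMHCA samples in red and horizontal bars at the group means. The DMHCA samples lie above all controls for Abca1, Abca2 and Abcg1 and below them for Abca5, and Abca3 has 1 sample, DMHCA library 2, far above the rest.

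Abca1 (ENSMUSG00000015243, chromosome 4 of GRCm38, 53030787 to 53159895), the pump for cholesterol efflux to lipid-poor particles, held 5142, 3368 and 6185 normalized counts in control libraries 1, 2 and 3. DMHCA libraries 1 and 3, as 1 sample, held 15008 normalized counts of it and DMHCA library 2 held 10199. Both DMHCA samples were above every control. The means were 4898 ± 1425 in controls (SD, n = 3) and 12604 ± 3400 with DMHCA (SD, n = 2). The log2 fold change was 1.36 (standard error 0.35, 95% confidence interval 0.53 to 2.20). The adjusted p of Abca1 was 0.644 by edgeR, 0.0809 by DESeq2 on the 5 samples and 0.00357 by DESeq2 on the 6 libraries. The study itself lists Abca1 among genes modulated by DMHCA in these tumors, so the direction is not independent evidence. With any 1 library left out, the log2 fold change of Abca1 ranged from 1.15 to 1.66.

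Abcg1 (ENSMUSG00000024030, chromosome 17, 31057675 to 31117988), whose product exports cholesterol to lipid-laden particles, held 4791, 9216 and 3687 normalized counts in control libraries 1, 2 and 3. The DMHCA samples held 9725 normalized counts of it in libraries 1 and 3 together and 10764 in library 2. Control library 2 thus came close to the DMHCA samples, and the other controls were well below them. The log2 fold change was 0.80 (standard error 0.42, 95% confidence interval -0.21 to 1.80, adjusted p = 0.649). It was 0.67 without control library 1, 1.27 without control library 2 and 0.55 without control library 3. The interval of Abcg1 includes the fold change of Abca1, and the difference between the genes was not tested.

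Abca2 (ENSMUSG00000026944, chromosome 2, 25428703 to 25448540), a transporter of late endosomes and lysosomes known from myelin-forming cells, held 3182, 1586 and 1621 normalized counts in the controls. It held 3707 in DMHCA libraries 1 and 3 and 3675 in DMHCA library 2. The DMHCA samples were nearly equal and lay just above control library 1. The log2 fold change of Abca2 was 0.79 (standard error 0.36, 95% confidence interval -0.08 to 1.66, adjusted p = 0.644), and it was 1.19 without control library 1, the library with salivary gland transcripts, 0.62 without control library 2 and 0.63 without control library 3.

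Abca3 (ENSMUSG00000024130, chromosome 17, 24351950 to 24410201) encodes the transporter that fills the surfactant-storing bodies of alveolar cells in the lung. It held 15243, 12253 and 5696 normalized counts in the controls, 10698 in DMHCA libraries 1 and 3, and 52169 in DMHCA library 2. DMHCA libraries 1 and 3 thus lay within the range of the controls, and DMHCA library 2 alone was high. The log2 fold change of 1.51 (standard error 0.70, 95% confidence interval -0.17 to 3.18, adjusted p = 0.644) was -0.01 without DMHCA library 2. Of all tested genes, 0.495% stood as far above the other samples in DMHCA library 2 as Abca3 did. Within 500 kb on each side of Abca3, 20 of 52 tested neighbours were highest in DMHCA library 2, a larger share than the 22.0% of all genes. The largest excess over the next sample among these neighbours was 1.502 on the log2 scale, and that of Abca3 was 1.78. The part of the surrounding region in the Abca3 level was not tested. Exons of Abca3 overlap those of D330041H03Rik on the other strand, and whether strand was used in counting is not stated. Abca3 was also the member whose expected counts were not whole numbers in any of the 6 libraries, as happens where RSEM divides a read between genes.

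Abca5 (ENSMUSG00000018800, chromosome 11, 110269369 to 110337716), a transporter of lysosomal and endosomal membranes, held 1185, 1594 and 1036 normalized counts in the controls. The DMHCA samples held 759 normalized counts in libraries 1 and 3 and 999 in library 2. Every DMHCA sample was below every control in normalized counts, by a small margin between DMHCA library 2 and control library 3. In TPM this margin reversed, with 3.47 TPM in DMHCA library 2 and 3.17 TPM in control library 3, so the groups overlapped. The log2 fold change of Abca5 was -0.53 (standard error 0.33, 95% confidence interval -1.32 to 0.25, adjusted p = 0.678).

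Abca7 (ENSMUSG00000035722, chromosome 10, 79996494 to 80015572), a close relative of Abca1 linked to phagocytosis and phospholipid transport, ranged from 663 to 1331 normalized counts in controls and from 873 to 1040 with DMHCA. The DMHCA samples lay inside the range of the controls. Its log2 fold change was -0.05 (95% confidence interval -0.95 to 0.85), so this design leaves room for a change of either sign. In TPM the mean of Abca7 was instead slightly higher with DMHCA, at 3.92 against 3.63.

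**Figure D2:**
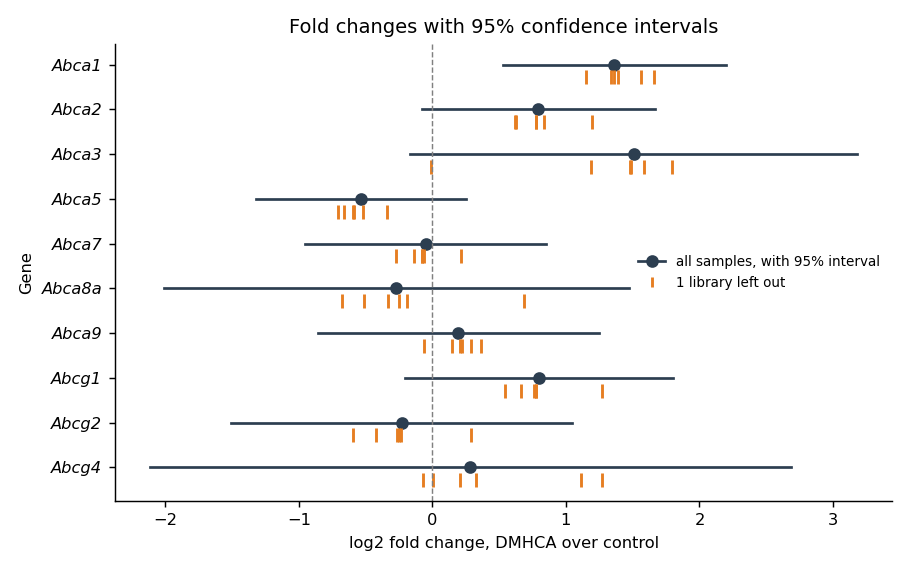
Log2 fold change (DMHCA over control) of each member with its 95% confidence interval (dark points and lines) and the values with 1 library left out (orange ticks). The interval of Abca1 lies above 0, from 0.53 to 2.20, the intervals of the other 9 members include 0, and 1 tick of Abca3 falls to -0.01.

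Abca8a and Abca9 belong to a cluster on chromosome 11 in which Abca8b, Abca8a, Abca9, Abca6 and Abca5 follow each other between 109932190 and 110337716. The substrates of this group are less well known than those of Abca1. Abca8a (ENSMUSG00000041828) held 318, 170 and 937 normalized counts in the controls, 402 in DMHCA libraries 1 and 3 and 386 in DMHCA library 2. Control library 3 was far above the rest, and the log2 fold change went from -0.27 (95% confidence interval -2.01 to 1.47) to 0.69 without it. Abca9 (ENSMUSG00000041797) held 490, 263 and 525 normalized counts in the controls and 483 and 492 in the DMHCA samples, with a log2 fold change of 0.20 (95% confidence interval -0.86 to 1.25). The samples of both groups overlapped for Abca8a and Abca9. Their neighbours Abca6 and Abca8b reached their highest normalized counts, 122 and 164, in control library 3 as well, while Abca5 was lowest there among the controls. Control library 3 had the highest summed fibroblast markers as well, 866 TPM against 194 to 513 TPM in the other 4 samples. In normalized counts, Dcn, Lum and Pdgfra were highest there, while Col1a1 and Col1a2 were highest in control library 1. The part of fibroblasts in the Abca8a level was not tested. In whole tumors, fewer cells of a type and less RNA per cell cannot be told apart. Exons of Abca8b overlap those of the antisense gene Gm11697.

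Abcg2 (ENSMUSG00000029802, chromosome 6, 58584523 to 58695676) encodes a drug and sterol exporter that also secretes substances into milk. It held 5897, 9783 and 2611 normalized counts in the controls, 4438 in DMHCA libraries 1 and 3 and 5972 in DMHCA library 2. The controls alone spanned more than the DMHCA samples, and the log2 fold change was -0.23 (95% confidence interval -1.50 to 1.05). It was 0.29 without control library 2 and -0.59 without control library 3. In TPM the means of Abcg2 were 72.4 in controls and 73.0 with DMHCA. Abcg4 (ENSMUSG00000032131, chromosome 9, 44273188 to 44288615), a relative of Abcg1 best known from the nervous system, was near the lower limit of detection. It held 98.2, 21.8 and 28.1 normalized counts in the controls, 104 in DMHCA libraries 1 and 3, and 15.2 in DMHCA library 2. The high and low samples of Abcg4 were spread over both groups, and its log2 fold change of 0.29 had a 95% confidence interval from -2.11 to 2.68. It was 1.27 without control library 1, -0.068 without control library 2, 0.0047 without control library 3 and 1.11 without DMHCA library 2.

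Levels were compared between members in TPM, which is scaled by transcript length. Abca3 had the highest mean over the 5 samples, 83.8 TPM, but this rests on DMHCA library 2, with 241 TPM. In the other 4 samples Abcg2 was above Abca3, and the mean of Abcg2 was 72.7 TPM. Abcg1 followed with 34.9 TPM, Abca1 with 20.4 TPM and Abca2 with 11.4 TPM, and within each of the 5 samples these 4 genes kept the order Abcg2, Abcg1, Abca1, Abca2. The ranges of neighbours among these genes overlapped. Abca8a, Abca7, Abca5 and Abca9 had means of 5.15, 3.74, 3.41 and 1.84 TPM. Abca5 and Abca9 were the neighbours whose ranges did not overlap, and Abca8a and Abca7 differed by less than the spread of Abca8a. Abcg4 was lowest, with 0.536 TPM. In the controls Abca1 had 11.5 ± 4.45 TPM (SD, n = 3) and Abcg1 23.5 ± 8.02 TPM. With DMHCA, Abca1 had 33.8 ± 6.50 TPM (SD, n = 2) and Abcg1 51.9 ± 7.67 TPM.

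The tables also give, for each gene and library, the mean length of its transcripts weighted by their estimated abundance, a measure of transcript makeup that the choice of members did not use. For Abca1 it was 10262 bases in each of the 3 controls, which is the full length of its coding transcript with 50 exons. In DMHCA libraries 1, 2 and 3 it was 10168, 9889 and 10006 bases. Abca1 has 1 other annotated transcript, of 775 bases and 6 exons, which is not annotated as coding. The lengths correspond to a share of 0 for this short transcript in the controls and of 0.994%, 3.93% and 2.70% of Abca1 transcripts in DMHCA libraries 1, 2 and 3. These shares stand for only about 9.1, 24.5 and 24.1 reads and differed between the nearly identical DMHCA libraries 1 and 3, so they are of low precision, and a share of 0 in controls is an estimate by RSEM and does not show absence.

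For Abcg1 the mean transcript length was 5721, 5753 and 5723 bases in the controls and 5479, 5394 and 5477 bases in DMHCA libraries 1, 2 and 3. The longest transcript of Abcg1 has 5832 bases and 15 exons, and the 4 others have 644 to 1372 bases. Depending on which of these were present, shorter transcripts made up between 1.52% and 2.50% of Abcg1 transcripts in the controls and between 6.81% and 9.83% with DMHCA. The libraries of the groups did not overlap in this measure. Over the tested genes with more than 1 transcript, 14.1% had shorter transcripts with DMHCA in both DMHCA samples than in all controls, and 10.7% had longer ones. Among the members Abca1 and Abcg1 were shorter in this sense and Abca3, Abca7 and Abca8a longer, and no test was made of these lengths. For Abca8a this holds with DMHCA libraries 1 and 3 averaged, while library 3 alone, at 2134 bases, lay within the controls. The mean length of Abca8a was 2012 to 3058 bases, far below the 5619 bases of its longest transcript, and that of Abcg2 was 2021 to 2105 bases against 5717. The TPM of these 2 genes therefore rests mostly on transcripts shorter than the longest one.

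**Figure D3:**
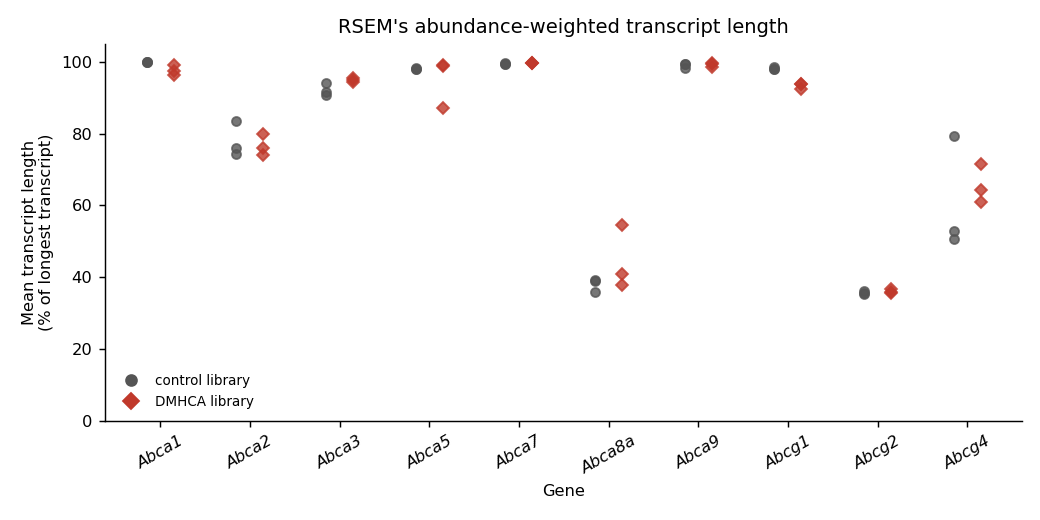
Mean transcript length of each member in each of the 6 libraries, weighted by abundance as estimated by RSEM and given as a percent of the longest annotated transcript. Control libraries (grey circles) of Abca1 sit at the full length, DMHCA libraries (red diamonds) of Abca1 and Abcg1 sit below all controls, and Abca8a and Abcg2 are far below their longest transcripts in every library.

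The other 12 ABCA and ABCG genes of the mouse on the list were low. Only 5 of them, Abca4, Abca6, Abca8b, Abca12 and Abcg3, passed the filter, and 0 of the 5 had an adjusted or unadjusted p under 0.05. Their log2 fold changes ran from -0.97 to -0.41, and the samples of the groups overlapped for all 5. Abcg5 and Abcg8, which together form the sterol exporter of liver and gut and are LXR targets there, were among the 7 not tested, with at most 6.49 and 3.25 normalized counts in any sample.

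Among the receptors, Nr1h2, the gene of LXRβ, held 3106 to 5077 normalized counts in controls and 5095 and 5761 with DMHCA, a log2 fold change of 0.40. Nr1h3, the gene of LXRα, held 362, 307 and 856 normalized counts in the controls and 198 and 171 in the DMHCA samples. Every DMHCA sample was below every control for Nr1h3, and its log2 fold change was -1.46, with a standard error of 0.59 and an adjusted p of 0.644. Nr1h3 was highest in control library 3, and its unadjusted p of 0.044 did not stay under 0.05 in 4 of the 15 alternatives tried. The RXR genes Rxra, Rxrb and Rxrg had log2 fold changes of 0.48, 0.04 and 1.503, and Rxrg was high in DMHCA library 2 alone, at 502 normalized counts.

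Of 18 established LXR target genes other than the transporters, 0 had an adjusted p under 0.05 by edgeR. An unadjusted p under 0.05 was reached by 4 in the higher direction and 0 in the lower, beside 3.53% and 4.08% of all genes. Without control library 3 the 4 became 6, and without control library 2 the 0 became 1. The counts were 6 higher and 1 lower with no filter on low counts and by DESeq2 on the 6 libraries. By DESeq2 on the 5 samples they were 5 higher and 1 lower. The 4 of the main test were Srebf1, the stearoyl-CoA desaturase genes Scd1 and Scd2, and Mylip, the gene of a ubiquitin ligase. Their log2 fold changes were 2.01, 2.87, 2.15 and 0.86. The groups did not overlap for 7 higher and 2 lower genes of this list, beside 13.8% and 12.2% of all genes. The 2 lower of 18 were thus about the share of all genes. Fasn was among the higher ones, at 27664 and 29693 normalized counts with DMHCA against 8252 to 25123 in controls. The lower ones were Lpl, the gene of lipoprotein lipase, and Apoe, a main acceptor of the cholesterol that Abca1 exports. Apoe held 86579, 85057 and 116981 normalized counts in the controls, and 77925 and 54993 in the DMHCA samples, a log2 fold change of -0.53. Apoc1, another apolipoprotein gene, split the DMHCA samples, with 15716 normalized counts in libraries 1 and 3 and 1724 in library 2. The median of the list was 0.36. Srebf1, Scd1, Scd2, Apoc1, Lpl and Abca1 are listed by the study from these libraries, so their directions are not independent evidence.

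Of 13 genes for acceptors, handling and storage of sterols, 12 were tested and 0 had an adjusted or unadjusted p under 0.05. Of the 12, 9 had a log2 fold change below 0, and the median was -0.20. The groups did not overlap for 1 gene that was lower, Apoe, and 1 that was higher, Npc1, beside 12.2% and 13.8% of all genes. Neither count of 1 in 12 exceeded these shares. Npc1, which exports cholesterol from lysosomes, held 2140 to 3020.4 normalized counts in controls and 3410.2 and 4668 with DMHCA, a log2 fold change of 0.58 (standard error 0.28). Apoa1, the classical acceptor for ABCA1, held at most 3.25 normalized counts in any sample, so its RNA was hardly detected in the tumors. Of 10 SREBP2 genes, which cells use to make and take up cholesterol, 9 were tested. Among these, Dhcr7, an enzyme of the last steps of cholesterol synthesis, had an unadjusted p under 0.05, beside 3.53% of all genes in the higher direction. It held 1889 to 3844 normalized counts in controls and 9312 and 6525 with DMHCA, a difference of 1.41 on the log2 scale with a standard error of 0.36.

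**Figure D4:**
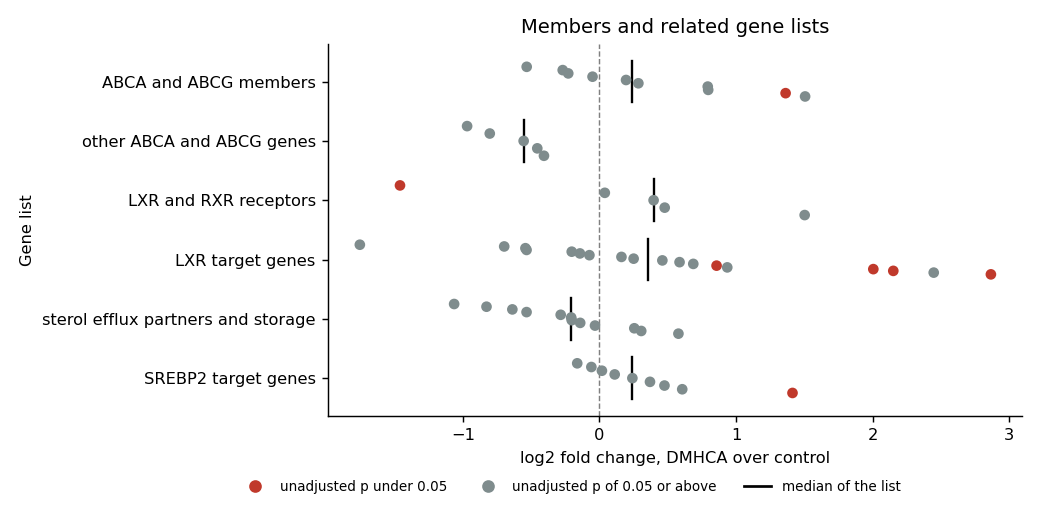
Log2 fold change (DMHCA over control) of each tested gene in the members and 5 related lists, with the median of each list as a black line and genes with an unadjusted p under 0.05 in red. Red points lie on the higher side for Abca1 among the members, for 4 of 18 LXR targets and for Dhcr7, and on the lower side for Nr1h3.

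The summed markers of adipocytes were lower, and those of luminal epithelium higher, in both DMHCA samples than in every control. The sums of the other cell types overlapped between the groups. The part of cell types in the values of the members was not tested. Of all genes, 3.53% had an unadjusted p under 0.05 in the higher and 4.08% in the lower direction. All 6 adipocyte markers had an unadjusted p under 0.05 and were lower in both DMHCA samples than in all controls, and their summed level was 123 to 918 TPM in controls and 68.9 TPM in each DMHCA sample. None of these markers was at 0 in the 5 samples. The summed macrophage markers were 938 to 2058 TPM in controls and 860 and 1063 TPM with DMHCA, and 0 of 7 had an unadjusted p under 0.05. Fibroblast markers summed to 194 to 866 TPM in controls and 365 and 413 TPM with DMHCA, and 0 of 5 had one. Without control library 2, 2 fibroblast markers and 1 macrophage marker had one, in the lower direction, beside 6.48% of all genes. B cell markers had one in 5 of 5 genes, T cell markers in 1 of 4 and salivary gland markers in 2 of 4 tested, all in the lower direction, with the highest sums in control library 3 or 1. With 1 library left out, these counts ranged from 0 to 5, 0 to 4 and 0 to 4, each reaching 0 without DMHCA library 2, which leaves 1 DMHCA sample. Endothelial markers had one in 1 of 5 genes, Cdh5, which was higher. Luminal markers, which include Erbb2, summed to 3986, 3464 and 2705 TPM in the controls and to 4796 and 4696 TPM in the DMHCA samples. Both DMHCA samples were thus above every control in this sum, as they were for Abca1, Abca2 and Abcg1. The 5 luminal markers did not move together, and in normalized counts the groups were apart for Krt8 only. Log2 fold changes were 0.54 for Krt8, 0.40 for Krt18, 0.74 for Erbb2, -0.12 for Epcam and -0.09 for Cdh1. By edgeR, 0 of the 5 luminal markers had an unadjusted p under 0.05, and 1, in the higher direction, without control library 1. Myoepithelial and skeletal muscle markers had one in 0 of 4 and 0 of 4 genes. Control library 3 had the highest sums of adipocyte, macrophage, fibroblast and B cell markers. Without it, the log2 fold changes were 1.56 for Abca1, 0.55 for Abcg1 and 0.63 for Abca2.

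The genes most like Abca1 and Abcg1 over the 5 samples were sought among 11780 genes with a mean of at least 300 normalized counts. Likeness was the root mean square difference of log2 values, each gene centred on its own mean. For Abca1 the nearest were 6430548M08Rik, Alpl and Per2, with differences of 0.14, 0.14 and 0.15. For Abcg1 they were Cdca2, Asf1b and Tet1, with 0.07, 0.09 and 0.11. Cdca2 held 676, 1381 and 508 normalized counts in the controls and 1405 and 1407 in the DMHCA samples, so it shared with Abcg1 the control library 2 that came close to the DMHCA samples. These names describe 5 samples, and no test was made of them.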

How the data were processed

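According to the study, RNA from 3 control and 3 DMHCA tumors was sequenced. The authors trimmed reads with Cutadapt 2.9 and aligned and counted them with RSEM 1.3.1 on a Bowtie2 2.4.1 index of Ensembl release 99 (mm10). The expected counts, TPM, FPKM and transcript lengths are the values the authors deposited from RSEM, 1 table per library. The FPKM values deposited by the authors were not used. Settings of RSEM and the use of strand are not given in the sources used here.

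Expected counts were rounded, and the counts of DMHCA libraries 1 and 3 were summed. The comparison of groups used edgeR 4.0.16 under R 4.3.3 (TMM, filterByExpr defaults, which are a count of 10 and a total of 15, quasi-likelihood F-test, Benjamini-Hochberg adjustment over 19427 genes). Standard errors are the log2 fold change over the square root of F. To obtain normalized counts, counts were divided by TMM-adjusted library sizes and multiplied by their mean. DESeq2 1.42.0 was the alternative tool. Positions and transcripts are from GENCODE mouse release 21 (GRCm38), which held all transcripts that the tables list for the members. Python 3.11.15, pandas 2.3.3 and matplotlib 3.10.9 were used.

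The members and gene lists were chosen with earlier results of these data known. All members are named, other genes only from the lists or as the 3 nearest in pattern to Abca1 and Abcg1, and D330041H03Rik and Gm11697 for their overlap with named genes. The comparison of Abca3 with its neighbours was added after its values were seen. Results for a few genes of the lists are not reported here.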

Additional observations from a re-analysis of the deposited data

How the results depend on the processing

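Of 150 fold changes of the members under 15 alternatives, 142 kept their direction and their side of the threshold. Abca1, Abca2, Abca5 and Abcg1 kept their direction throughout, and the adjusted p of Abca1 ranged from 0.00357 (DESeq2 on the 6 libraries) to 0.959 (without DMHCA replicate 2, where the lone DMHCA sample is assumed to vary like the controls). With 1 library left out, log2 fold changes ranged from -0.013 (without DMHCA library 2) to 1.79 for Abca3, -0.27 to 0.22 (without control library 3) for Abca7, -0.67 to 0.69 (without control library 3) for Abca8a, -0.059 (without control library 2) to 0.37 for Abca9, -0.59 to 0.29 (without control library 2) for Abcg2, and -0.068 (without control library 2) to 1.27 for Abcg4, so that the direction of these 6 members turned. The number of members with an adjusted p under 0.05 was 1 by DESeq2 on the 6 libraries and 0 otherwise. All genes with one numbered 16 with no filter on low counts, 244 by DESeq2 on the 5 samples and 846 by DESeq2 on the 6 libraries. Members with an unadjusted p under 0.05 numbered 3 with no filter, 2 by DESeq2 on the 5 samples, 2 by DESeq2 on the 6 libraries, 3 by edgeR on the 6 libraries, and 1 to 2 with 1 library left out. They were 2 without control library 1 (beside 3.33% of all genes higher and 3.37% lower) and without control library 2 (2.91% and 6.48%). Allowing 3 mismatches in the LXR element gave 1 member with a match instead of 0. The cause of these differences was not tested.

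The labels give control and DMHCA libraries the same replicate numbers and no other link. Over genes, the departures of 2 libraries with the same number from the means of their groups correlated at -0.06 to 0.36 over 3 pairs, and other pairs -0.39 to 0.35, so the numbers were not taken as pairs. Control library 2 correlated at 0.34 with DMHCA library 2. Control library 3 correlated at 0.36 with DMHCA library 3 and at 0.35 with DMHCA library 1. Because DMHCA libraries 1 and 3 are nearly identical, their departures mirror that of DMHCA library 2. These correlations are therefore not separate evidence and cannot show whether the numbers are pairs. With the replicate block on the 6 libraries, 4 members had an unadjusted p under 0.05 (Abca1, Abca2, Abca5 and Abcg1), beside 9.1% of all genes higher and 8.08% lower, 0 had an adjusted one, and Abca8a turned to 0.10.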
